A study of Homo sapiens with 24 samples.

Results

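*BTG1*, *BTG3*, *TOB1* and *TOB2* belong to the BTG/TOB (APRO) family of antiproliferative genes, and they were followed here through the knockdown and overexpression of *FMR4*, a long non-coding RNA transcribed antisense to *FMR1*. The genes were taken by name, as the probe sets that the array annotation gives to a single one of these symbols, and probe sets were chosen by the highest mean log2 level over the 24 arrays. Each of the 4 genes had 1 such probe set, so that the level decided nothing in practice. They are 4 of 18417 genes measured. Of the other members of the family, *BTG4* had a probe set and *BTG2* was not analysed here.

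The family shares an amino-terminal APRO domain that binds the deadenylases CNOT7 and CNOT8 of the CCR4-NOT complex, the machine that shortens the poly(A) tails of mRNAs. The longer TOB proteins also bind the poly(A) binding protein PABPC1 through their carboxy-terminal part, and so bring deadenylase and tail together. When overexpressed, the members slow entry into S phase in many cell types, and their own mRNAs are short-lived.

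HEK293T is a human embryonic kidney line that carries adenoviral sequences and the SV40 large T antigen, which binds p53 and the RB proteins. The cells were transfected with 40 nM FMR4 siRNA or CTRL siRNA (a scrambled control) in Lipofectamine RNAiMAX, or with 0.5 μg of pcDNA3.1 plasmid that carried *FMR4* (FMR4 pcDNA3.1) or nothing (CTRL pcDNA3.1) in Lipofectamine 2000CD, and RNA was taken 6 or 24 h later. There were 3 arrays per condition and 24 in all, and no untransfected cells. Reagent and nucleic acid changed together between the siRNA and the plasmid arms, so their parts in a difference between arms cannot be told apart. The level of *FMR4* itself was not read from these arrays. Values are log2 expression as deposited, and differences are differences of means on that scale, where 1 is a doubling. A gene is said to rise, fall or be called where its adjusted p in the limma fit over all genes is under 0.05. In cultures of this kind fewer cells with an mRNA and less of it per cell cannot be told apart, and the series' description calls the 3 samples biological replicates without saying whether they were separate cultures, so the p-values cover the spread between these samples, which may be technical.

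The array labelled FMR4 siRNA 6 h, replicate 3, stands apart from the other 2 of its condition. Over all genes its SD from their mean was 0.275, against 0.102 to 0.214 for the other 23 arrays. Results that rest on it are given with and without it. The 8 markers of HEK293 cells were all above the background level of 6.00, which is the upper quartile of 429 olfactory receptor and keratin-associated genes. Of these 8 *NEFM*, a neurofilament gene, was called at 24 h, 0.76 higher under FMR4 siRNA than under CTRL siRNA. Between FMR4 siRNA and both plasmid groups at 24 h none of the 8 was called, where 12.4% of all genes were. In CTRL siRNA 1 of the 8 was lower than in the plasmid groups, where 6.9% of all genes were called. Of 12 measured markers of other cell types 7 were above the background level as well, while *PTPRC*, *DCN*, *LUM*, *ALB* and *MYH2*, of blood, fibroblast, liver and muscle cells, were below. None of the 12 was called between FMR4 siRNA and CTRL siRNA at 24 h, and their summed linear level ranged from 1549 to 1659 in the former and from 1615 to 1680 in the latter.

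The promoters of the 3 genes that moved are shown because *BTG1* and *BTG3* were higher under FMR4 siRNA at 24 h than in the plasmid groups and *TOB2* was lower than under CTRL siRNA. Each is the 250 bases before the annotated transcript start in RefSeq (GRCh38.p14), 5′ to 3′ on the strand of the gene, which is the minus strand for all 3. Capitals mark 4 motifs searched on both strands, the CRE core TGACG, the CCAAT box, the GC box GGGCGG and the TATA box TATAAA, none of which overlap in these windows.
*BTG1*, chr12:92145847-92146096: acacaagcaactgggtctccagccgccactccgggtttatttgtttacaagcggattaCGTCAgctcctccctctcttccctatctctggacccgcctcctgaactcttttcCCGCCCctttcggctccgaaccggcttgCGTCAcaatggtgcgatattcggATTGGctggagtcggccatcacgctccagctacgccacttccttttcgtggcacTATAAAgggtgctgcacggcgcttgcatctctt
*BTG3*, chr21:17612902-17613151: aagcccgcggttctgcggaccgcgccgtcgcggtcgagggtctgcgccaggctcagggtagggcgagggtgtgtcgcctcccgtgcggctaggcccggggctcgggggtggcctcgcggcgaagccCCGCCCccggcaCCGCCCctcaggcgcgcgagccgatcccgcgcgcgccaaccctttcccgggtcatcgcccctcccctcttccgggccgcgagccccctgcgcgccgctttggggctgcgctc
*TOB2*, chr22:41446802-41447051: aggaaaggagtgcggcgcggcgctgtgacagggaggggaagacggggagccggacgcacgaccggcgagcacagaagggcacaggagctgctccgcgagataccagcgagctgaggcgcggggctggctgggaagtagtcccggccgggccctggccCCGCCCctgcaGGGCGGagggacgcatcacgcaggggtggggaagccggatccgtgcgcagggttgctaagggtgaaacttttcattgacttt

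The *BTG1* window holds a TATA box 33 bases before the start, a CCAAT box at 87 bases, a GC box at 138 bases, and CRE cores at 110 and 192 bases. The *BTG3* and *TOB2* windows hold 2 GC boxes each and none of the other motifs. Of the 35116 annotated promoter windows of this length, 10.7% hold the TATA box, 32.0% the CCAAT box, 42.6% the GC box and 21.2% the CRE core. The *BTG1* window is 56.4% G and C, that of *BTG3* 78.4% and that of *TOB2* 68.4%. *TOB1* has 2 annotated starts, and of its windows 1 holds 3 GC boxes, a CCAAT box and a CRE core while the other holds none of the motifs. These matches are a description of letters, and no binding was measured.

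At 24 h after transfection, members of the family differed in both directions between FMR4 siRNA and CTRL siRNA. *BTG3* rose 1.28-fold and *TOB2* fell 1.27-fold, while *BTG1* was 1.18-fold higher and *TOB1* 1.03-fold higher without being called. That is 2 of 4 genes called, where 5.88% of all genes were called in this comparison, 3.43% higher and 2.45% lower. The family was chosen with earlier results of these data known, so this count carries no independent weight.

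*BTG3*, an antiproliferative factor that binds E2F1, read 10.09, 10.22 and 10.17 on the FMR4 siRNA arrays and 9.88, 9.67 and 9.88 on the CTRL siRNA arrays. The groups did not overlap, and CTRL siRNA replicate 2 lay below its own group. The difference was 0.35 (SE 0.0909, n = 3 per group, limma adjusted p = 0.0215). The rise of *BTG3* was known from earlier results of these data and carries no independent weight. It was no longer called without CTRL siRNA replicate 2 (0.28, adjusted p = 0.159), FMR4 siRNA replicate 2 (0.32, adjusted p = 0.101) or FMR4 siRNA replicate 3 (0.34, adjusted p = 0.0589).

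*TOB2*, one of the pair of TOB proteins that bridge CCR4-NOT and PABPC1, read 9.49, 9.58 and 9.60 under FMR4 siRNA and 9.96, 9.90 and 9.83 under CTRL siRNA. Every FMR4 siRNA array was below every CTRL siRNA array, and the mean of 9.56 is the lowest *TOB2* mean among the 8 conditions. The fall was -0.34 (SE 0.0838, n = 3 per group, limma adjusted p = 0.0150). The adjusted p became 0.0741 without CTRL siRNA replicate 1, 0.0595 without CTRL siRNA replicate 2 and 0.0767 without FMR4 siRNA replicate 1, with differences from -0.37 to -0.31 over the 6 arrays left out in turn.

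*BTG1*, whose product also binds the arginine methyltransferase PRMT1, read 10.56, 10.60 and 10.58 under FMR4 siRNA and 10.34, 10.34 and 10.34 under CTRL siRNA. Here too the groups did not overlap, and both were tight, with SDs of 0.0230 and 0.0038. The difference of 0.24 (SE 0.0835, 95% interval 0.07 to 0.41) was not called over all 24 arrays (limma adjusted p = 0.114). It was called when the spread was taken from the 12 arrays of 24 h alone (adjusted p = 0.00828) or with array weights (adjusted p = 0.00641). How many of all genes these fits called was not counted.

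*TOB1*, the paralog of *TOB2*, read 10.72, 10.72 and 10.73 under FMR4 siRNA and 10.71, 10.64 and 10.68 under CTRL siRNA. The groups were narrowly apart, and the difference was 0.04 (95% interval -0.09 to 0.18, limma adjusted p = 0.846). All 4 genes thus had arrays that did not overlap between the conditions, as did 22.2% of all genes in this comparison.

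**Figure D1:**
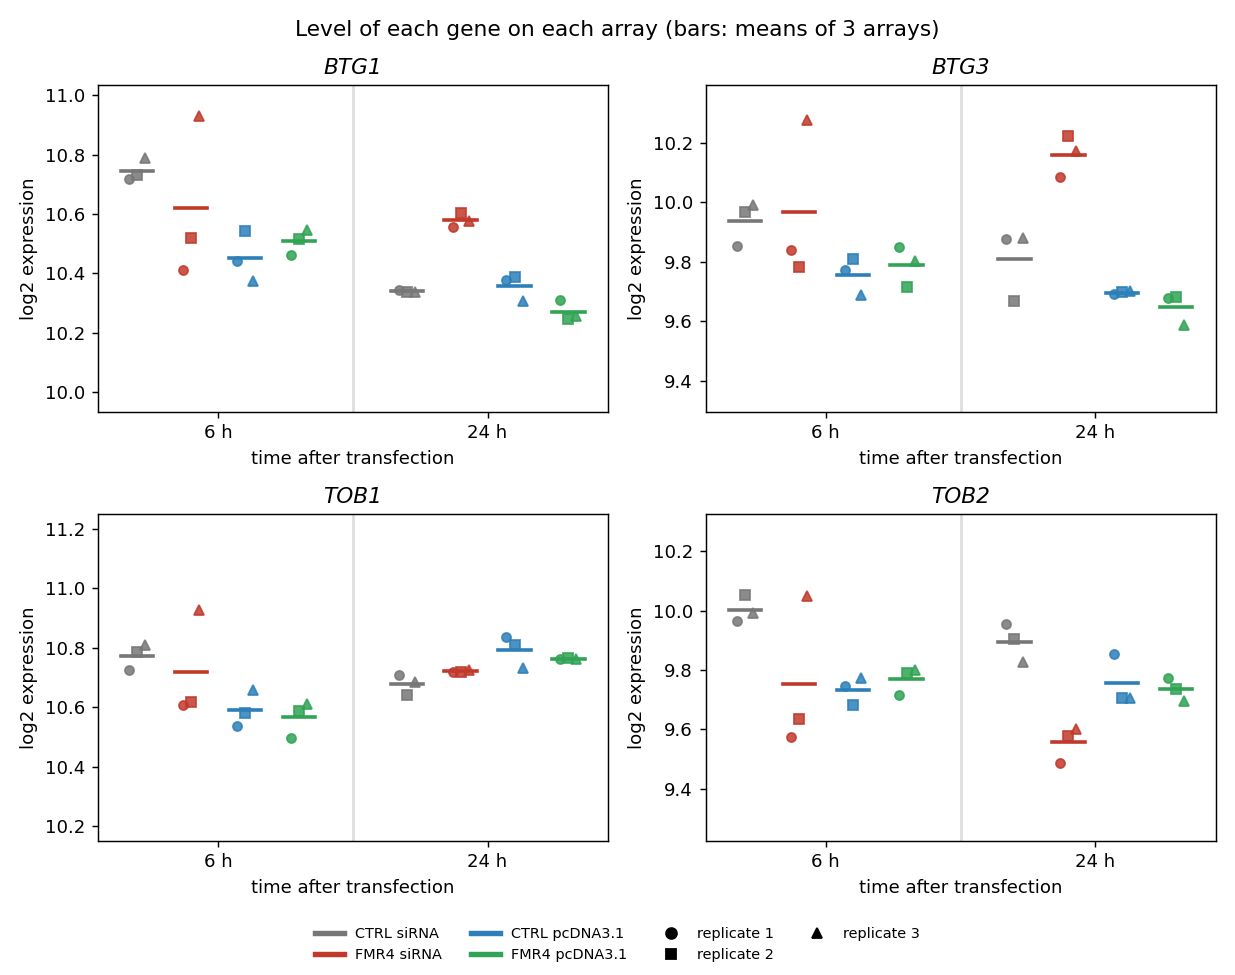
Log2 expression (vertical axis) of *BTG1*, *BTG3*, *TOB1* and *TOB2* on each of the 24 arrays at 6 and 24 h after transfection, with colours for the 4 treatments, symbols for the replicate numbers and bars for the means of 3 arrays. At 24 h the FMR4 siRNA points lie above those of the other treatments for *BTG3* and *BTG1* and below them for *TOB2*, and the FMR4 siRNA 6 h replicate 3 triangle lies above the other 2 points of its condition for all 4 genes.

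Whether FMR4 siRNA or its control had moved was read against both plasmid groups at 24 h, with the reservation that reagent and nucleic acid differ. These comparisons share the siRNA arrays with the knockdown comparison, and they share the plasmid arrays with each other. *BTG3* was 0.49 higher under FMR4 siRNA than in the 6 plasmid arrays (SE 0.0787, limma adjusted p = 0.000228), and *BTG1* was 0.26 higher (SE 0.0723, limma adjusted p = 0.0175). *TOB2* was lower by a difference of -0.19 (SE 0.0726, limma adjusted p = 0.0975) and *TOB1* differed by -0.06 (limma adjusted p = 0.609), neither called. The comparison called 12.4% of all genes, 7.1% being higher under FMR4 siRNA. *BTG1* lost its call without FMR4 siRNA replicate 2 (adjusted p = 0.0769) or replicate 3 (adjusted p = 0.0538), while *BTG3* kept it without any single array, with differences from 0.46 to 0.53.

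CTRL siRNA set against the same plasmid arrays gave differences of 0.03 for *BTG1*, 0.14 for *BTG3*, -0.10 for *TOB1* and 0.15 for *TOB2*, and none of the 4 was called (lowest limma adjusted p = 0.262, none at an unadjusted p under 0.05), where 6.9% of all genes were. The *TOB2* level of CTRL siRNA was thus above and that of FMR4 siRNA below the plasmid mean of 9.75, whereas the *BTG1* level of CTRL siRNA, 10.34, lay beside the plasmid mean of 10.31.

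At 6 h the knockdown comparison called none of the 4 genes (lowest limma adjusted p = 0.911), and it called 0.0597% of all genes. The differences were -0.13 for *BTG1*, 0.03 for *BTG3*, -0.06 for *TOB1* and -0.25 for *TOB2*, the last with an unadjusted p of 0.00691. All 4 carried the array that stands apart, on which they were higher than the mean of the other 2 arrays of the condition by 0.46 for *BTG1*, 0.47 for *BTG3*, 0.32 for *TOB1* and 0.44 for *TOB2*.

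The *TOB2* arrays show this most plainly, with 9.58, 9.64 and 10.05 under FMR4 siRNA and 9.97, 10.05 and 9.99 under CTRL siRNA. Without replicate 3 of FMR4 siRNA, a choice made after seeing its values, *TOB2* was lower by a difference of -0.40 (SE 0.0608, limma adjusted p = 0.000929). *BTG1*, at 10.41, 10.52 and 10.93 against 10.72, 10.73 and 10.79, was then lower by -0.28 (SE 0.0563, limma adjusted p = 0.00577). *BTG3* was at -0.13 (adjusted p = 0.352) and *TOB1* at -0.16 (adjusted p = 0.0969) without it. Leaving that array out moved the share of all genes called from 0.0597% to 4.64%.

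The change of the knockdown difference from 6 to 24 h was tested directly. It was 0.36 for *BTG1* (SE 0.118, limma adjusted p = 0.181) and 0.32 for *BTG3* (SE 0.129, limma adjusted p = 0.332) over all arrays, and 0.52 (adjusted p = 0.000323) and 0.48 (adjusted p = 0.00258) without the array that stands apart. For *TOB2* it was -0.09 over all arrays (95% interval -0.34 to 0.16) and 0.06 without that array (adjusted p = 0.759). Of all genes 1.18% were called here over all arrays and 8.32% without that array.

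**Figure D2:**
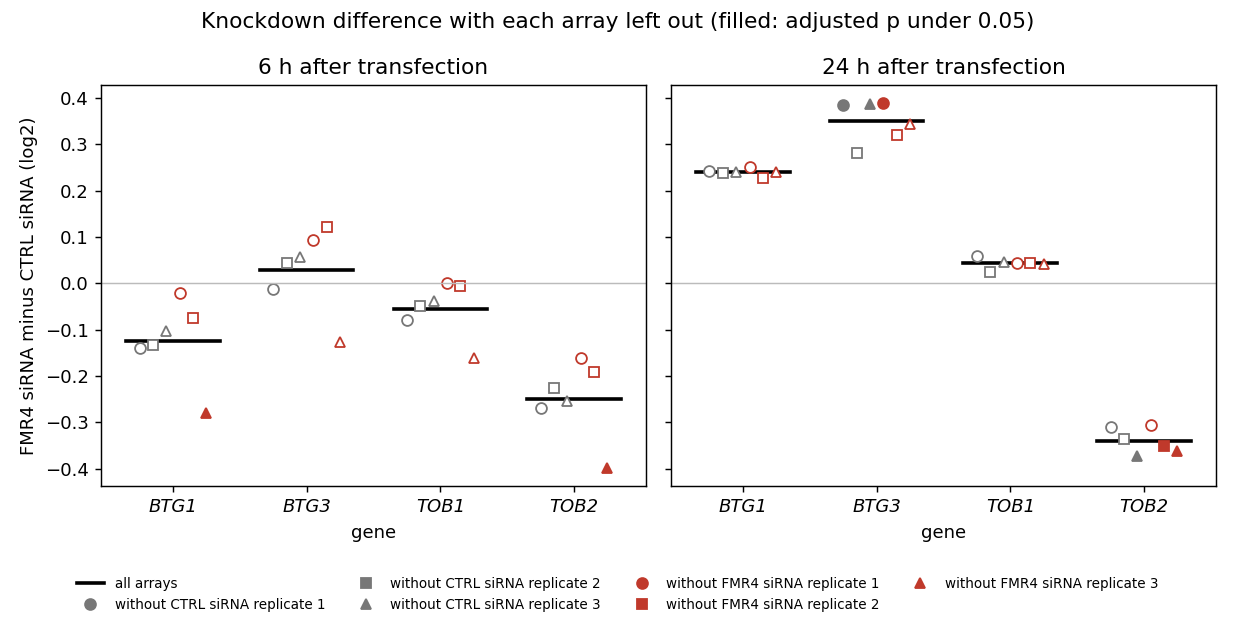
Difference in log2 expression between FMR4 siRNA and CTRL siRNA (vertical axis) for each gene at 6 h (left) and 24 h (right), over all arrays (black bars) and with each array of the comparison left out in turn (symbols, filled where the limma adjusted p is under 0.05). At 6 h *BTG1* and *TOB2* are filled only without FMR4 siRNA replicate 3, and at 24 h the symbols of *BTG3* stay between 0.28 and 0.39 and those of *TOB2* between -0.37 and -0.31.

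The overexpression comparison called none of the family members at either time. At 6 h the FMR4 pcDNA3.1 and CTRL pcDNA3.1 arrays overlapped for all 4 genes, with differences of 0.06 for *BTG1*, 0.03 for *BTG3*, -0.03 for *TOB1* and 0.04 for *TOB2*. At 24 h they were -0.09, -0.05, -0.03 and -0.02 in the same order. The 24 h difference of *TOB1* turned to 0.00036 and that of *TOB2* to 0.0088 when the arrays were centred on their medians. At 24 h *BTG3* read 9.68, 9.68 and 9.59 with *FMR4* and 9.69, 9.70 and 9.70 without, and was the single gene of the 4 whose arrays did not overlap, as held for 12% of all genes.

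limma called 0 of the 4 genes at either time, and 0 of all 18417 genes (0%), while an unadjusted p under 0.05 was reached by 373 genes at 6 h and by 602 genes at 24 h, none of the 4 included. The 95% intervals at 24 h ran from -0.26 to 0.09 for *BTG1*, -0.24 to 0.14 for *BTG3*, -0.17 to 0.11 for *TOB1* and -0.20 to 0.15 for *TOB2*. Changes of the size seen for *BTG3* and *TOB2* in the knockdown lie outside the intervals of these genes. For *BTG1* a fall as large as its knockdown difference of 0.24 lies inside, and so does a change of 0.04 for *TOB1*.

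The study looked for genes that move in opposite ways when *FMR4* is removed and added, and its supplement lists *BTG3* among those discordant to *FMR4*. That list came from LIMMA followed by a clustering tool, a different selection from the contrast used here. The overexpression effect minus the knockdown effect tests whether the effects differ. This contrast can be large when the knockdown alone moves a gene, and does not by itself test opposite movement. For *BTG3* at 24 h the knockdown difference was 0.35 and the overexpression difference -0.05, the latter not called. At 24 h the contrast was -0.40 for *BTG3* (SE 0.129, limma adjusted p = 0.140), -0.33 for *BTG1* (SE 0.118, limma adjusted p = 0.210), 0.32 for *TOB2* (SE 0.118, limma adjusted p = 0.231) and -0.07 for *TOB1* (limma adjusted p = 0.875). None was called, where 2.12% of all genes were, and an unadjusted p under 0.05 was reached by 3 of the 4 and by 2187 of all 18417 genes. With the 12 arrays of 24 h alone the adjusted p was 0.0341 for *BTG3* and 0.0231 for *BTG1*, and the share of all genes called was not counted. At 6 h none of the 4 was called (lowest limma adjusted p = 1.00, 1 gene, *TOB2*, at an unadjusted p of 0.0250), as was 0% of all genes. Without the array that stands apart the 6 h values of *TOB2* (0.43, adjusted p = 0.0164) and *BTG1* (0.34, adjusted p = 0.0359) were called, as were 0.999% of all genes.

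**Figure D3:**
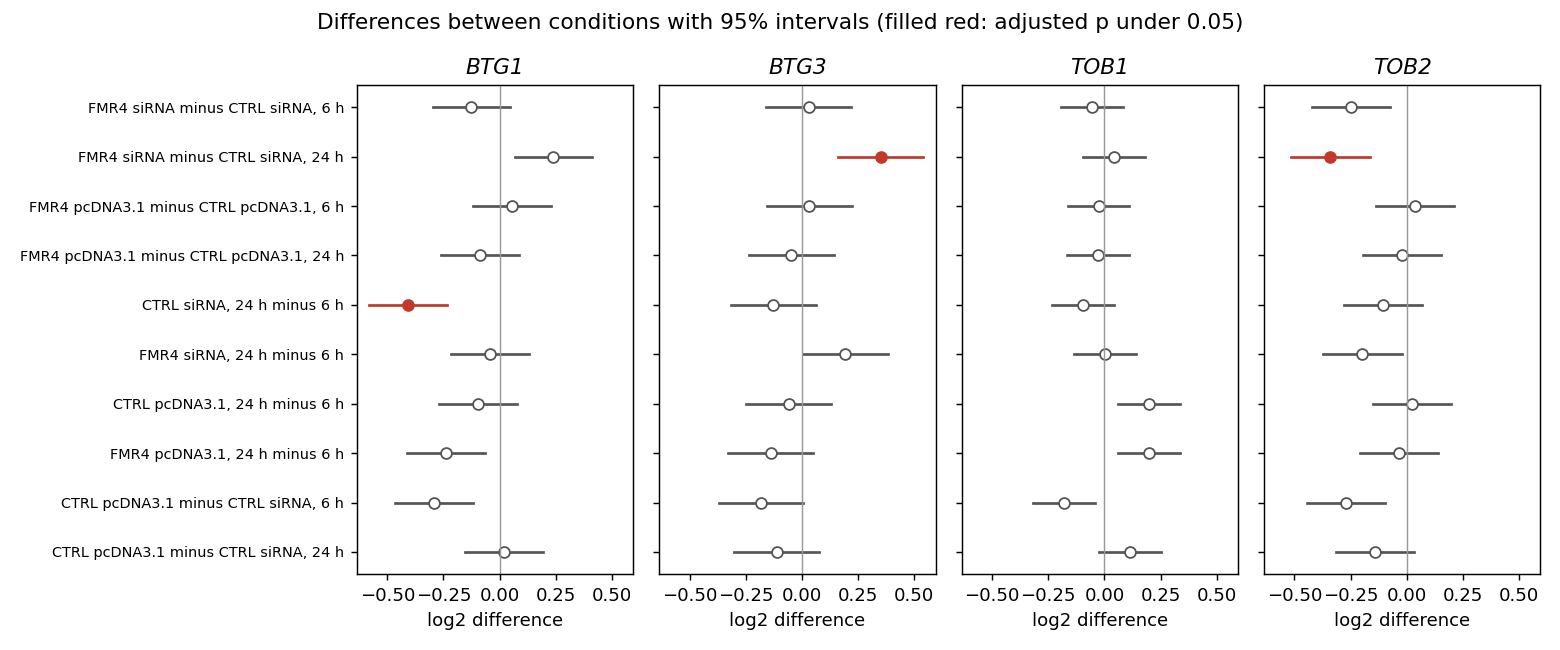
Log2 differences (horizontal axis) with 95% intervals for *BTG1*, *BTG3*, *TOB1* and *TOB2* in 10 comparisons between conditions, filled red where the limma adjusted p over all genes is under 0.05. The red points are the 24 h knockdown differences of *BTG3* (0.35) and *TOB2* (-0.34) and the change of *BTG1* with time in CTRL siRNA cells (-0.41).

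Between 6 and 24 h *BTG1* fell in the CTRL siRNA cells from 10.72, 10.73 and 10.79 to 10.34, 10.34 and 10.34. No array of one time reached those of the other. The fall of -0.41, 1.33-fold, was called (SE 0.0835, limma adjusted p = 0.00191) and stayed so without any single array, between -0.42 and -0.39. In this comparison 18.5% of all genes were called, 8.75% being lower at 24 h. The FMR4 siRNA cells gave -0.04 for *BTG1* (adjusted p = 0.785), and 0.11 without the array that stands apart, and the FMR4 pcDNA3.1 cells gave -0.24 (adjusted p = 0.0967). In the CTRL pcDNA3.1 cells *BTG1* changed by -0.095 (adjusted p = 0.569). That change minus the change in CTRL siRNA was 0.31 (SE 0.118, limma adjusted p = 0.185), a comparison added after seeing the data. It was not called, where 1.12% of all genes were.

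*TOB1* was 0.20 higher at 24 h in both plasmid groups, with CTRL pcDNA3.1 at 10.54, 10.58 and 10.66 and then 10.84, 10.81 and 10.73 (limma adjusted p = 0.0761). In the FMR4 pcDNA3.1 cells the arrays did not overlap between the times either (limma adjusted p = 0.0827). The CTRL siRNA cells gave -0.09 for *TOB1*, and the change in CTRL pcDNA3.1 minus the change in CTRL siRNA was 0.30 (SE 0.0940, limma adjusted p = 0.122), a comparison added after seeing the data in which 1.12% of all genes were called. None of the 4 genes was called with time in FMR4 siRNA, CTRL pcDNA3.1 or FMR4 pcDNA3.1, where 16.7%, 5.76% and 6.33% of all genes were. By limma's unadjusted p under 0.05, 2 of the 4 passed in FMR4 siRNA (*BTG3* at 0.19 and *TOB2* at -0.20), *TOB1* in CTRL pcDNA3.1, and *BTG1* and *TOB1* in FMR4 pcDNA3.1. Of all 18417 genes 5571, 3705 and 3744 passed the same limit in these comparisons. The *TOB2* value in FMR4 siRNA was -0.049 without the array that stands apart. *BTG3* in FMR4 siRNA was called without the array that stands apart, at 0.35 (adjusted p = 0.00212), in a fit that called 13.3% of all genes. The change of *BTG3* in FMR4 pcDNA3.1 minus its change in FMR4 siRNA, a comparison also added after seeing the data, was -0.33 (limma adjusted p = 0.145), where 3.04% of all genes were called. Without the array that stands apart this comparison called *BTG3*, at -0.49 (adjusted p = 0.00687), and *BTG1*, at -0.35 (adjusted p = 0.0136). The share of all genes called in that fit was not counted, so these calls have no background to be read against.

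At 6 h all 4 genes were lower with the control plasmid than with the control siRNA, and none was called. CTRL pcDNA3.1 minus CTRL siRNA was -0.29 for *BTG1* (limma adjusted p = 0.0535), -0.27 for *TOB2* (0.0696 adjusted), -0.18 for *TOB1* (0.112 adjusted) and -0.18 for *BTG3* (0.233 adjusted), and *BTG1*, *TOB1* and *TOB2* had an unadjusted p under 0.05, as had 4263 of all 18417 genes. No plasmid array reached the siRNA arrays for any of the 4, as held for 31.1% of all genes, and 3.3% of all genes were called. *BTG1*, for one, read 10.44, 10.54 and 10.38 with the plasmid and 10.72, 10.73 and 10.79 with the siRNA. The call of *BTG1* was gained with quantile normalization (-0.32, adjusted p = 0.0293) or without dim probe sets (adjusted p = 0.0451). For these settings the share of all genes called was not counted. At 24 h the same difference lay between -0.14 and 0.11 for the 4 genes, none called (lowest limma adjusted p = 0.422, none at an unadjusted p under 0.05), where 4.48% of all genes were.

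Over the 8 conditions, the means of *BTG3* spanned 0.51, those of *BTG1* 0.48, those of *TOB2* 0.45 and those of *TOB1* 0.23. The range of *TOB1* was wider than that of 45.2% of all genes, against 86.8% for *TOB2*, 89.0% for *BTG1* and 91.1% for *BTG3*. *BTG1* was highest in CTRL siRNA 6 h (10.75) and lowest in FMR4 pcDNA3.1 24 h (10.27), with CTRL siRNA 24 h (10.34) next to lowest and apart from it. Among its neighbours in rank, FMR4 siRNA 24 h (10.58) was clear of FMR4 pcDNA3.1 6 h (10.51), and the rest overlapped.

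*BTG3* was highest in FMR4 siRNA 24 h (10.16) and lowest in FMR4 pcDNA3.1 24 h (9.65). From there to CTRL pcDNA3.1 24 h (9.70) the arrays were apart, and all other neighbours in rank overlapped. *TOB2* was highest in CTRL siRNA 6 h (10.00), then CTRL siRNA 24 h (9.90), and each was apart from the next lower condition. The next 5 conditions lay between 9.73 and 9.77 and overlapped in rank, and FMR4 siRNA 24 h (9.56) had the lowest mean. Its arrays were apart from those of the other treatments but overlapped with FMR4 siRNA 6 h, where replicate 1 read 9.58. *TOB1* ran from 10.57 in FMR4 pcDNA3.1 6 h to 10.79 in CTRL pcDNA3.1 24 h, with a gap in rank between FMR4 pcDNA3.1 24 h (10.76) and FMR4 siRNA 24 h (10.72). *BTG4*, an oocyte factor of the family, had condition means between 3.78 and 3.90, below the background level of 6.00.

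Over the 24 arrays, each of which carries all the genes, and which fall into 8 conditions, *BTG1* and *BTG3* had a Pearson r of 0.75, and 0.66 over the 23 arrays without the one that stands apart. The other 5 pairs of members lay between 0.03 and 0.40 over the 24 arrays, and between -0.20 and 0.26 over the 23. Among 15131 genes above the background level, the profiles most like *BTG1* were those of *SERPINB9* (r = 0.96), *TUFT1* (0.95) and *CRY1* (0.95). Those most like *BTG3* were *ARFGAP3* (r = 0.93), *BRPF1* (0.92) and *TAOK2* (0.91). For *TOB1* they were *SEPTIN9* (r = 0.94), *ITM2C* (0.89) and *PKNOX2* (0.89), and for *TOB2* they were *GIT1* (r = 0.94), *TGOLN2* (0.89) and *RGS17* (0.87). Over the 23 arrays these 12 values lay between 0.84 and 0.94. These are descriptions of likeness over arrays that share conditions.

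The machinery that the family works with was followed in the 24 h knockdown comparison, where the median difference of all genes was 0.0039. Of the 12 genes of the CCR4-NOT complex 2 rose and none fell, with a median of 0.07. *CNOT3*, a scaffold subunit of its NOT module, rose by 0.47 (SE 0.0679, limma adjusted p = 7.37e-05), and *CNOT6*, a deadenylase of the CCR4 type, by 0.34 (SE 0.0662, limma adjusted p = 0.00211). The subunits that bind the APRO domain directly were not called, with -0.12 for *CNOT7* (adjusted p = 0.360) and 0.09 for *CNOT8* (adjusted p = 0.463). *CNOT6* was also higher under FMR4 siRNA than in the plasmid arrays (0.28, adjusted p = 0.00217). *CNOT3* was not (0.16, adjusted p = 0.0794), and it was lower in CTRL siRNA than in the plasmid arrays, by -0.31 (adjusted p = 0.00183).

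Of 12 measured genes for poly(A) binding proteins and deadenylases outside CCR4-NOT, 2 fell and none rose, with a median of -0.0085. *PAN2*, the catalytic subunit of the PAN2-PAN3 deadenylase, fell by 0.30 (SE 0.0738, limma adjusted p = 0.0150), and *PARN*, the poly(A)-specific ribonuclease, fell by 0.33 (SE 0.0839, limma adjusted p = 0.0209). Against the plasmid arrays 1 of these 12 was called lower under FMR4 siRNA and none higher, so *PAN2* and *PARN* were not both called there. Of 13 RNA-binding proteins that recruit CCR4-NOT, 2 rose, with a list median of 0.11. *CPEB2*, of the family that binds cytoplasmic polyadenylation elements, rose by 0.52 (SE 0.103, limma adjusted p = 0.00240), and *RC3H2*, which encodes Roquin-2, by 0.44 (SE 0.0609, limma adjusted p = 4.76e-05). *CPEB2* was 0.77 higher under FMR4 siRNA than in the plasmid arrays (adjusted p = 4.58e-06), whereas *RC3H2* differed by 0.13 (adjusted p = 0.119) and was lower in CTRL siRNA by -0.31 (adjusted p = 0.000661).

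None of 9 decapping and decay genes was called (median 0.04, the lowest adjusted p being that of *DCP2*, 0.349). Of 10 measured protein partners of the family *MAPK3* alone was called. It encodes ERK1, a kinase that phosphorylates TOB1, and rose by 0.48 (SE 0.0598, limma adjusted p = 1.25e-05). Its level under FMR4 siRNA differed from that of the plasmid arrays by 0.0014 (SE 0.0518), and that of CTRL siRNA was lower by a difference of -0.48 (adjusted p = 2.97e-06). Of 13 growth arrest genes none was called (median 0.03, lowest adjusted p = 0.0753 for *SESN1* at -0.20), and of 12 proliferation markers *BUB1*, a mitotic checkpoint kinase, fell by 0.19 (SE 0.0531, limma adjusted p = 0.0320), with a list median of 0.02. Against the plasmid arrays none of these 12 was called lower under FMR4 siRNA, and 1 was called higher. The 5.88% called over all genes is the background for each count of the knockdown comparison. For the counts of FMR4 siRNA against the plasmid arrays it is 12.4%. Nothing particular to any list is drawn from these counts.

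**Figure D4:**
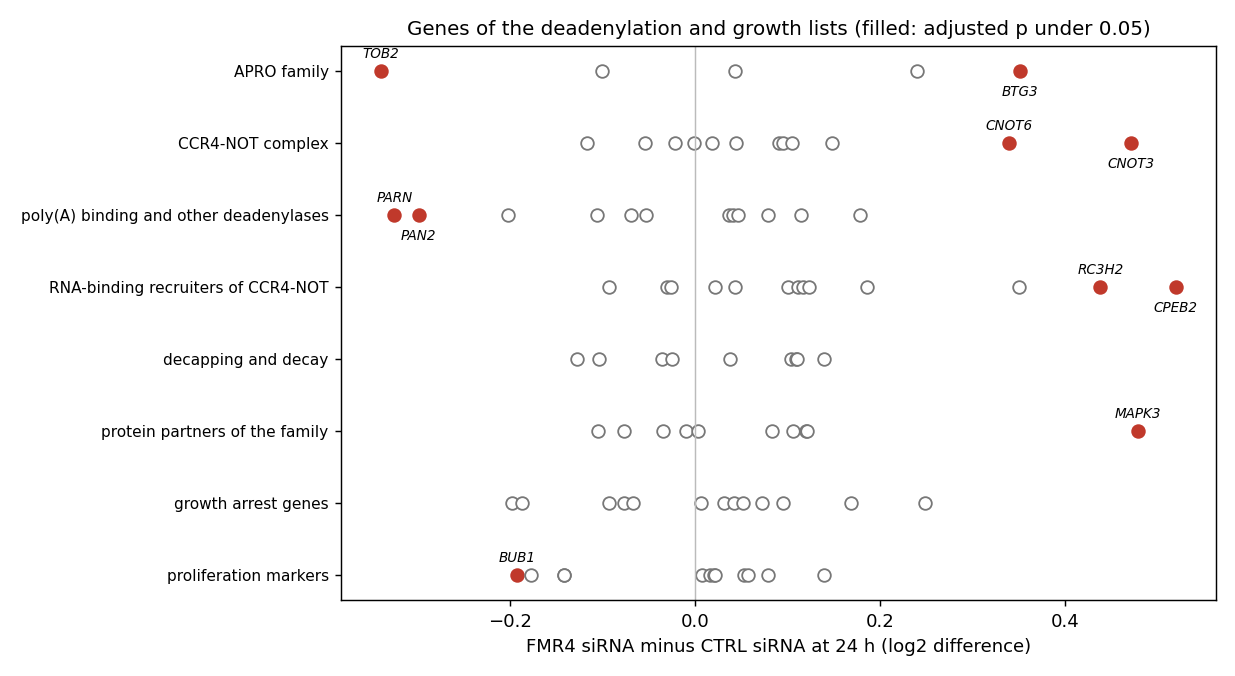
Log2 difference between FMR4 siRNA and CTRL siRNA at 24 h (horizontal axis) for each measured gene of 8 lists, from the APRO family with *BTG4* to the proliferation markers, filled and named where the limma adjusted p over all genes is under 0.05. Named points lie on both sides of 0, from *TOB2* at -0.34 to *CPEB2* at 0.52, and the lists of decapping and growth arrest genes hold none.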

How the data were processed

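RNA of HEK293T cells was hybridised to 24 Affymetrix Human Gene ST arrays, 3 for each of 8 conditions. The authors subtracted background and normalized with GC-RMA, and the deposited values are log2 expression. They lie between 2.62 and 14.5, with array medians from 7.43 to 7.53, and were used as they are. Of 33297 probe sets, 21214 carried a gene symbol and were tested, and 18417 genes with a single symbol were counted, each by its probe set of highest mean. limma 3.58.1 in R 4.3.3 was fitted with 1 mean per condition over all arrays (16 residual degrees of freedom), two-sided, with Benjamini-Hochberg adjustment within each of 18 comparisons and a threshold of 0.05. The script was tested on simulated data. The number of arrays limits the precision, and per the series' description 3 technical replicates were combined for each array.

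The members and gene lists were chosen with earlier results of these data known. In each list the genes named are up to 4 called in the 24 h knockdown comparison, or else the one of lowest p. *CNOT7*, *CNOT8* and the second comparisons of list genes were named after their values were seen. Promoter sequences are from RefSeq, and Python 3.11.15 with matplotlib 3.10.9 made the figures. Alternatives were array centring, quantile normalization, removal of dim probe sets, other fits, a replicate block and leaving out each array.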

Additional observations from a re-analysis of the deposited data

How the results depend on the processing

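Values are log2 differences, and the alternatives below are those that moved a value across the threshold or changed its sign. The cause was not tested. The share of all genes called under these alternatives was not counted, other than where it is given above without the array that stands apart. The added calls can therefore not be told apart from more calls over all genes. The 24 h knockdown calls of *BTG3* and *TOB2* kept direction and call under every alternative tried other than leaving out an array.

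Array weights added most calls. For *BTG1* they gave calls of 0.23 in the knockdown at 24 h, 0.44 in its change from 6 to 24 h, -0.32 in overexpression minus knockdown at 24 h, -0.29 between the controls at 6 h, -0.24 with time in FMR4 pcDNA3.1, and 0.31 and -0.29 in the differences of time changes between the CTRL and the FMR4 groups. For *BTG3* they gave 0.17 in CTRL siRNA minus plasmids, 0.31 with time in FMR4 siRNA, 0.39 in the change of the knockdown effect, -0.35 in overexpression minus knockdown at 24 h and -0.45 in the time changes of the FMR4 groups. For *TOB1* they gave -0.19 between the controls at 6 h, 0.22 and 0.19 with time in CTRL and FMR4 pcDNA3.1, and 0.29 in the time changes of the CTRL groups. For *TOB2* they gave -0.26 between the controls at 6 h, 0.15 and -0.21 in CTRL and FMR4 siRNA minus plasmids, -0.34 in the knockdown at 6 h and 0.34 in overexpression minus knockdown at 24 h. They turned *BTG1* with time in FMR4 siRNA to 0.045 and *BTG3* in the knockdown at 6 h to -0.091, neither called.

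A fit to the 12 arrays of 24 h called *BTG1* in the knockdown (0.24), *BTG1* (-0.33) and *BTG3* (-0.40) in overexpression minus knockdown and *TOB2* in FMR4 siRNA minus plasmids (-0.19). A fit to the arrays compared called the last 3 of these, with the same values, as well as *BTG1* (-0.29) and *TOB2* (-0.27) between the controls at 6 h, *BTG1* (-0.24) and *TOB1* (0.20) with time in FMR4 pcDNA3.1, and *BTG1* (0.31) and *TOB1* (0.30) in the time changes of the CTRL groups. *BTG1* between the controls at 6 h was also called at -0.29 without dim probe sets and with trend and robust moderation. Quantile normalization called it at -0.32, and *TOB2* there at -0.30, *TOB1* with time in CTRL (0.22) and FMR4 pcDNA3.1 (0.24), and *TOB2* in FMR4 siRNA minus plasmids (-0.22) and with time in FMR4 siRNA (-0.25).

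Signs of small differences that were not called turned with the scaling. Centring on array medians gave -0.034 for *BTG1* between the controls at 24 h, 0.00036 for *TOB1* and 0.0088 for *TOB2* in the overexpression at 24 h, 0.026 for *TOB1* in its change from 6 h, and -0.026 for *TOB2* with time in CTRL pcDNA3.1. Quantile normalization gave -0.013 for *BTG3* in overexpression minus knockdown at 6 h, 0.0080 for *TOB1* and 0.015 for *TOB2* in the overexpression at 24 h, 0.025 for *TOB1* in its change from 6 h, -0.029 for *TOB1* with time in FMR4 siRNA and 0.0082 for *TOB2* with time in FMR4 pcDNA3.1.

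With each array left out in turn, the knockdown difference at 24 h ran from 0.28 to 0.39 for *BTG3* and from -0.37 to -0.31 for *TOB2*, and FMR4 siRNA minus plasmids from 0.25 to 0.28 for *BTG1*. At 6 h the knockdown difference ran from -0.28 to -0.021 for *BTG1*, -0.13 to 0.12 for *BTG3* and -0.40 to -0.16 for *TOB2*. Its change to 24 h ran from 0.26 to 0.52 for *BTG1*, 0.23 to 0.48 for *BTG3* and -0.18 to 0.058 for *TOB2*. Overexpression minus knockdown at 6 h ran from 0.077 to 0.34 for *BTG1*, -0.089 to 0.16 for *BTG3*, -0.026 to 0.13 for *TOB1* and 0.20 to 0.43 for *TOB2*. The change with time in FMR4 siRNA ran from -0.15 to 0.11 for *BTG1*, 0.10 to 0.35 for *BTG3*, -0.052 to 0.11 for *TOB1* and -0.29 to -0.049 for *TOB2*, where *TOB2* was called without FMR4 siRNA 6 h replicate 1. The difference of time changes between the FMR4 groups ran from -0.35 to -0.092 for *BTG1* and -0.49 to -0.24 for *BTG3*, and that of the CTRL groups from -0.0011 to 0.11 for *BTG3*. In the overexpression *BTG3* ran from -0.0010 to 0.070 and *TOB1* from -0.054 to 0.0082 at 6 h, *TOB2* from -0.046 to 0.028 at 24 h, and the change of *TOB1* between the times from -0.038 to 0.024. *TOB2* with time in CTRL pcDNA3.1 ran from -0.027 to 0.047.

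Arrays with the same replicate number were compared by the correlation, across genes, of their deviations from the condition means. For replicates 1, 2 and 3 in turn it was 0.084, -0.38 and -0.16 in the 24 h knockdown. It was 0.17, -0.063 and 0.47 in the 6 h knockdown, and 0.076, 0.16 and 0.12 in the 6 h overexpression. In no comparison were all 3 over 0.1. With 3 arrays per condition these values cannot decide whether samples of the same number were prepared together. The replicate block changed no call of the 4 genes, with adjusted p of 0.0266 for *BTG3* and 0.0264 for *TOB2* in the knockdown at 24 h, at the same differences of 0.35 and -0.34.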
